A study of Mus musculus with 4 samples.

Results

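The mouse genes examined here carry a Gm number in place of a name. All table rows whose symbol is Gm followed by digits were taken, apart from Gm7325 and Gm5483, which were left out by rule, and a row was kept where the mean of its Tet2 KO and WT values was at least 1 FPKM (fragments counted per kilobase of transcript and scaled to the number of fragments mapped, so that levels can be compared between genes of different length). The genes were thus chosen by the same 2 values that the comparison uses, as far as their mean goes. This gave 100 genes out of 1177 Gm rows and 24445 genes in all. Of the other Gm rows, 405 were listed at 0 in both groups, and 11692 genes of every kind reached the same minimum.

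The RNA came from cultured primary myoblasts of C57BL/6 mice, either WT or Tet2 KO, with 2 sequenced libraries per genotype and no further treatment. Tet2 encodes a dioxygenase that oxidises 5-methylcytosine, and in the Tet2 KO animals its exon 3 had been removed from the genome by homologous recombination, not in muscle cells alone. Young adult males were the study's standard animals unless it stated otherwise. Muscle stem cells were sorted from the hindlimb as CD34 and integrin alpha 7 positive cells lacking CD45, CD11b, CD31 and Sca1, and were grown on collagen for 3 days or more. The table holds 1 value per genotype, with no SD, and neither the number of mice behind a library nor the library depths are given in it. A difference between the genotypes therefore has no replicate error here, no test could be computed from these values, and each value below is the authors' group value.

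A Gm symbol is a provisional name that mouse nomenclature gives to a predicted gene model before a function is known. Such models are mixed in kind. Many are processed pseudogenes, copies of a spliced mRNA that was reverse transcribed and inserted elsewhere in the genome without introns. Others are long noncoding RNAs (lncRNAs) or protein-coding members of rapidly duplicating families, such as interferon-inducible GTPases and zinc finger proteins. Fragments from a young copy and from its parent gene can align to both, so the level assigned to either depends on how the aligner and the quantification share them.

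Most of the 100 genes had nearly the same level in both genotypes. The difference used throughout is the log2 ratio of Tet2 KO to WT after 1 FPKM was added to each, and a gene is called past 2-fold where that ratio is at least 1 in size. Its median over the Gm genes was -0.0037, against -0.0044 over all 11692 genes. The log2 ratio was positive in 48 of them and negative in 52, and its middle values ran from -0.10 to 0.09. By this measure 1 Gm gene was higher in Tet2 KO, Gm4737, and 1 was lower, Gm1821. That is 2% of the Gm genes, where 3.29% of all genes passed 2-fold, 2.08% higher and 1.21% lower. Whether those shares differ was not tested.

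The same values chose the genes and form the ratio. The 1 FPKM added to each value limits how large a log2 ratio a weak gene can show. The minimum of 1 FPKM leaves out the weakest genes, for which that limit is tightest. The 2 genes closest above the minimum were Gm10560 at 0.756 FPKM in Tet2 KO and 1.26 in WT, and Gm14057 at 1.07 and 0.978. The 2 closest below it were Gm3604 at 1.06 and 0.930 and Gm15760 at 0.922 and 1.06. None of these 4 passed 2-fold. Below the minimum 3 Gm rows passed 2-fold: Gm1966, whose mean was 0.977 FPKM (1.77 in Tet2 KO and 0.188 in WT), Gm13212 (1.51 and 0.206) and Gm45923 (0.173 and 1.67). The pair left out by rule stood at 51.7 and 14.7 FPKM for Gm5483 and at 18.9 and 36.9 for Gm7325, log2 ratios of 1.75 and -0.93.

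**Figure D1:**
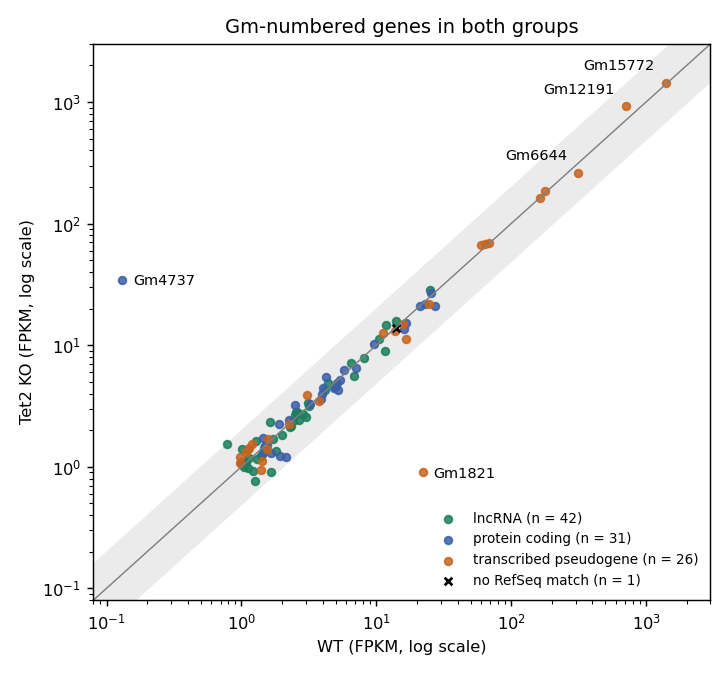
Level of each of the 100 Gm genes in WT (horizontal axis) and Tet2 KO (vertical axis), in FPKM on log scales with nothing added. Gm4737 and Gm1821 stand apart, and the other 98 Gm genes differ by at most 1.96-fold on this scale.

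Gm4737 had the largest log2 ratio of the Gm genes. WT cells had 0.131 FPKM and Tet2 KO cells 34.5 FPKM, which gives a log2 ratio of 4.97. The row lies on chromosome 16 (46153106 to 46155190, build mm9), and the GENCODE annotation of that build places there a gene of 1 exon and 2081 bases on the minus strand, classed as protein coding. Its nearest expressed named neighbour, Plcxd2, was 142580 bases away with a log2 ratio of -0.10. Within 1000000 bases, 8 named genes reached 1 FPKM and 0 of them passed 2-fold, the ratios running from -0.58 (Cd200) to 0.24 (Phldb2).

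The transcript of Gm4737 matched the coding sequence of Ahcy over its whole length. Ahcy encodes adenosylhomocysteinase, the enzyme that clears S-adenosylhomocysteine, the product left behind by methyltransferases. The parent gene has 10 exons on chromosome 2, and the 1299 coding bases differed from Gm4737 at 4 positions, with 0 gaps. To show how few bases separate them, a stretch holding 2 of the differences is printed 5′ to 3′ from the mm9 genome, with the differing bases in capitals. Gm4737 is at chr16:46154591-46154680 and Ahcy at chr2:154890573-154890662, both on the minus strand.
Gm4737: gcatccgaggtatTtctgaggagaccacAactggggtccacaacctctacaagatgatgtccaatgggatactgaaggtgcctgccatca
Ahcy: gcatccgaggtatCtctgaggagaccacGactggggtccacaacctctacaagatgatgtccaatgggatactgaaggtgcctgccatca
Ahcy itself was listed at 104 FPKM in Tet2 KO and 122 in WT, a log2 ratio of -0.22. The parent was therefore the stronger row in both genotypes and was not past 2-fold. How the fragments common to them were shared was not tested.

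Gm1821 lay at the other end. WT cells had 22.1 FPKM and Tet2 KO cells 0.899 FPKM, which gives a log2 ratio of -3.61. RefSeq now names it Ubb-ps, and the mm9 annotation has a pseudogene of 1 exon and 690 bases on the plus strand of chromosome 14, inside the row's interval from 46703702 to 46704632. Its closest expressed named gene, Ddhd1, was 425884 bases away and had a log2 ratio of -0.11. The 12 named genes of at least 1 FPKM within 1000000 bases ran from -0.62 (Samd4) to 0.21 (Ero1l), and 0 passed 2-fold.

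The parent gene of Gm1821 is Ubb, which encodes polyubiquitin, a chain of ubiquitin repeats that is cut into single ubiquitin molecules. Ubb has 918 coding bases on chromosome 11, of which 690 aligned to the pseudogene with 10 differences and 0 gaps. The stretch printed here holds 6 of them, again with the differing bases in capitals, from chr14:46704210-46704299 and chr11:62366285-62366374 of mm9, plus strand.
Gm1821: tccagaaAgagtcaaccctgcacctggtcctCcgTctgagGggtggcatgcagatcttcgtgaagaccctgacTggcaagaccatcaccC
Ubb: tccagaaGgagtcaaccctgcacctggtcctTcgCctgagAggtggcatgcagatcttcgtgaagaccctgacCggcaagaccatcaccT
Ubb was listed at 387 FPKM in Tet2 KO and 337 in WT, a log2 ratio of 0.20. As with Gm4737, the copy had a large ratio and the parent, at a much higher level in both genotypes, had a small one of the opposite sign.

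The remaining 98 genes ran from -0.53 (Gm1943) to 0.51 (Gm16675) on the log2 scale, at most 1.44-fold, and 49 of them were within 0.1 of 0. The SD of all 100 log2 ratios was 0.65, and that of the 98 was 0.19. The SD over all 100 thus rests on 2 genes, whereas the interquartile range, 0.20, does not. Past 1.5-fold there were again only Gm4737 and Gm1821 among the Gm genes (2%), against 6.61% of all genes, 3.72% higher and 2.89% lower. This count depends on the 1 FPKM added to each value. On the FPKM ratio with nothing added, 7 Gm genes (7%) and 8.99% of all genes were past 1.5-fold, the other 5 Gm genes being Gm16675, Gm10069, Gm3636, Gm10560 and Gm11127, at 1.59 to 1.96-fold.

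The Gm genes were weak, with a median mean level of 2.82 FPKM against 14.2 for named genes. Named genes were therefore weighted to the same levels, in 10 bins bounded by the deciles of the Gm genes. Of 11196 named genes so weighted, 4.76% passed 2-fold and 11.2% passed 1.5-fold. The weighted mean of their interquartile ranges within bins was 0.30. The Gm genes were below the named genes on each of these 3 measures (2%, 2% and 0.20). Their 0.20 is the interquartile range over all 100 at once, not a mean over bins. That order comes with the weighting for the interquartile range, which was 0.20 for named genes before it. With a minimum of 5 FPKM the order at 2-fold was reversed, at 5.88% of 34 Gm genes and 2.62% of named genes, and for the 45 Gm genes alone at their locus the shares were close, 4.44% and 4.65%. The order also depended on the fold, since from 2.5-fold upward the share of Gm genes, still 2%, was above the weighted named share, which was 1.87% at 2.5-fold and 0.760% at 3-fold.

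**Figure D2:**
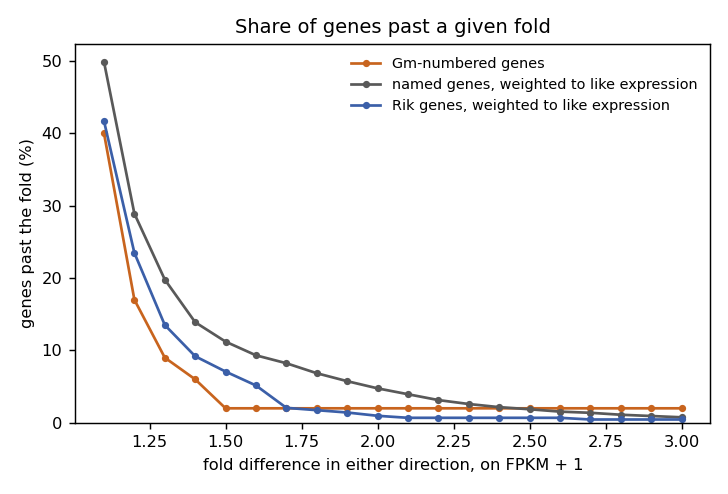
Share of genes (vertical axis, percent) whose FPKM plus 1 differed between genotypes by at least the fold on the horizontal axis, for the 100 Gm genes and for named and Rik genes weighted to the same levels. The Gm curve drops from 40% at 1.1-fold to 2% at 1.5-fold and then stays flat, below the named curve up to 2.4-fold and above it from 2.5-fold.

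Within the single bins the picture was the same in most but not all. The interquartile range of the Gm genes was below that of named genes in 9 of 10 bins, with 10 Gm genes per bin. The median absolute log2 ratio was below in 7 of 10. It was above in the highest bins, from 6.82 FPKM upward, at 0.13, 0.14 and 0.076 for Gm genes. Named genes had 0.10, 0.085 and 0.073 there. In the lowest bin, from 1.01 to 1.09 FPKM, the interquartile range was 0.15 for Gm genes and 0.33 for 175 named genes. The exception for the interquartile range was the bin from 6.82 to 13.8 FPKM, at 0.37 for Gm genes and 0.21 for named genes. That bin holds Gm1821 and Gm1943.

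**Figure D3:**
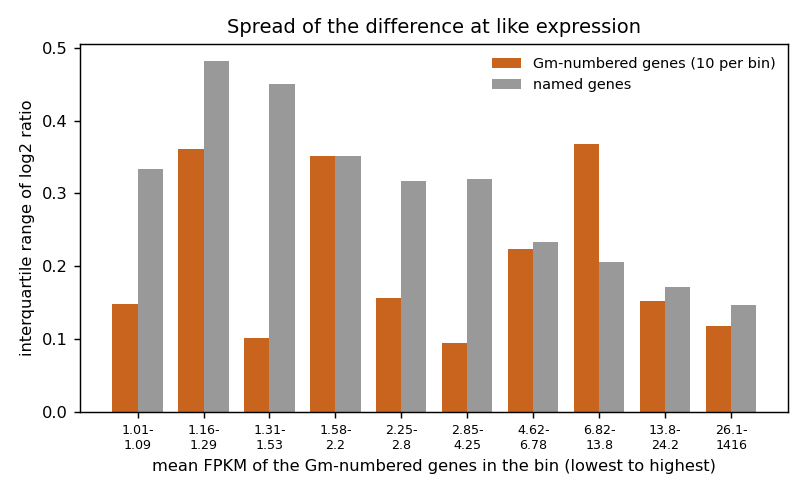
Interquartile range of the log2 ratio of Tet2 KO to WT (vertical axis) in 10 bins of mean FPKM (horizontal axis, lowest to highest). Paired bars show Gm genes and named genes. The Gm value is the lower one in 9 bins, and the bin from 6.82 to 13.8 FPKM is the exception.

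The classes most like them were other provisional names. Rik genes, named after clones of the RIKEN cDNA collection, had 3 of 333 past 2-fold (0.901%). Weighted to the levels of the Gm genes, 0.965% passed 2-fold, and the weighted mean of the interquartile ranges within bins was 0.24. Genes known only by a GenBank accession or a LOC number had 6 of 61 past 2-fold (9.84%) and an SD of 0.81. Gm genes thus lay between these classes at 2-fold, with counts of 2, 3 and 6 genes behind the shares.

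The 100 symbols covered several kinds of gene. RefSeq held 99 of them, as 42 lncRNAs, 31 protein-coding genes and 26 transcribed pseudogenes, and had no entry for Gm17066. A newer symbol was given for 7: Wincr1 (Gm12603), Morrbid (Gm14005), Tdg-ps2 (Gm9855), Ubb-ps (Gm1821), Hectd4 (Gm15800), Gm18852 (Gm17757) and Gm16008 (Gm10560). GENCODE of the mm9 build held 76, with longest transcripts of 259 to 15482 bases (median 1268.5), of which 24 had 1 exon and 52 had more. Both genes past 2-fold were among the 24 with 1 exon, and the 52 with more exons ran from -0.51 to 0.51. A link between exon number and a large ratio was not tested.

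A near-identical copy elsewhere in the genome was common. Of the 76 genes with a transcript, 27 (35.5%) had another genomic locus matching at least 50% of the transcript at 95% identity or more, against 33 of 510 named genes searched in the same way (6.47%). Gm4737 and Gm1821 were both among the 27. The 49 without such a copy ran from -0.49 (Gm10069) to 0.51 (Gm16675), with 0 past 2-fold. Over all genes 3.29% passed 2-fold, so few would be looked for among 49. The split rests on 2 genes, and a link between a copy and a large ratio was not tested.

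**Figure D4:**
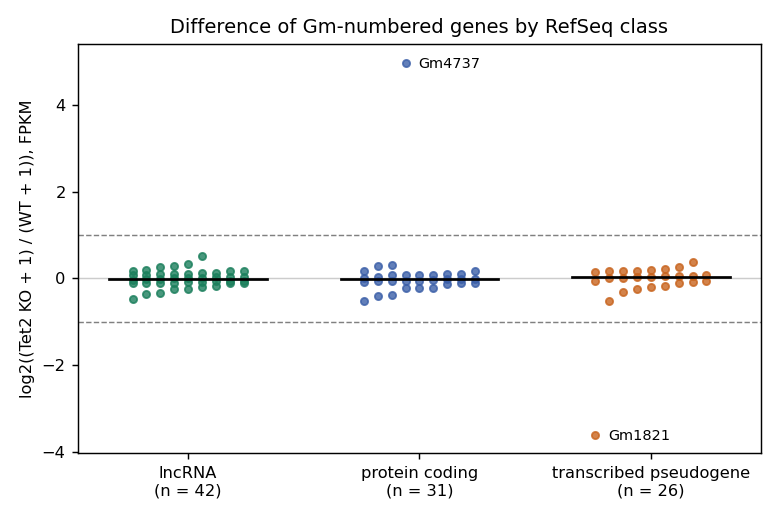
Log2 ratio of Tet2 KO to WT, on FPKM plus 1, of each Gm gene by RefSeq class, each point being 1 gene. The 42 lncRNAs lie from -0.49 to 0.51, and the points past 2-fold are Gm4737 among the protein-coding genes and Gm1821 among the pseudogenes.

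The 42 lncRNAs had a median absolute log2 ratio of 0.10, against 0.15 for the transcribed pseudogenes. Gm16675 was at 1.54 FPKM in Tet2 KO and 0.786 in WT (log2 ratio 0.51), and Gm11423 was at 2.34 and 1.63 (0.34). On the other side Gm10069 stood at 0.904 and 1.67 (-0.49), Gm19705 at 5.604 and 6.88 (-0.26) and Gm5113 at 1.36 and 1.81 (-0.25). None was past 1.5-fold once 1 FPKM was added to each value. With nothing added, Gm16675 and Gm10069 were at 1.96-fold and 1.84-fold. Most of these rows were within a few FPKM of the minimum. The smaller positive ratios at this end were Gm4532 (0.27), Gm16617 (0.20) and Gm6634 (0.18), whose levels in either genotype ran from 1.00 to 1.62 FPKM.

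A few lncRNAs were stronger and have been studied under another name. Gm14005, or Morrbid, is a lncRNA known to set the life span of short-lived myeloid cells through its neighbour Bcl2l11. It was listed at 14.6 FPKM in Tet2 KO and 11.8 in WT, a log2 ratio of 0.28, while Bcl2l11, 136116 bases away, had -0.10. Gm12603, or Wincr1, a WNT-induced lncRNA, was at 15.7 and 13.9 (0.16).

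The level of Morrbid was read beside leukocyte markers, which were higher in Tet2 KO. All 8 markers (Ptprc, Itgam, Tyrobp, Lyz2, Csf1r, Cd68, Laptm5 and Fcer1g) had log2 ratios between 0.94 and 2.07, 6 of them past 2-fold, and their summed level was 365 FPKM in Tet2 KO and 92.8 in WT. None of these markers was at 0 in either group, although CD45 and CD11b were used to remove leukocytes in the sort. In bulk RNA a different number of such cells and a different amount of RNA per cell cannot be told apart, and their part in the values of the Gm genes was not tested. Myoblast markers were present in both groups, with Myod1 at 313 FPKM in Tet2 KO and 336 in WT, and a summed level of 7 markers of 1296 and 1707. Myog, the 1 myoblast marker past 2-fold, was at 268 and 554 (log2 ratio -1.04). The endothelial sums were 3.71 and 4.44, and those of 5 fibroblast markers were 300.05 and 284, mostly Ly6a, which encodes Sca1. All 5 fibroblast markers had positive ratios, up to 0.95 for Dcn (7.04 and 3.15), and without Ly6a the sums of the other 4 were 12.2 and 6.48. Tet2 itself stood at 5.79 FPKM in Tet2 KO and 6.64 in WT, a gene-level value that is no check of the loss of exon 3.

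The protein-coding Gm genes included relatives of known families. The interferon-inducible GTPases, which act against pathogens inside cells, had 6 relatives here, and 0 were past 2-fold (range -0.38 to 0.16). Among these, Gm17757 is classed by RefSeq as a transcribed pseudogene. Gm12185, also called Irgb2b1, was at 20.9 FPKM in Tet2 KO and 27.4 in WT. Gm12250, or Irgb10, was at 21.2 in both, Gm4841 at 21.9 and 22.8, and Gm4951 at 26.8 and 25.4. Gm12250, Gm4841 and Gm4951 had similar levels in both genotypes, and so did Iigp1, a family gene with a name, at 511 and 516. Gm12185 was lower in Tet2 KO, with a log2 ratio of -0.38. Gm4070 (6.19 and 5.74) and Gm17757 (1.33 and 1.08) belong to the very large GTPases and share the locus of Gvin1 on chromosome 7, so that their reads may not be separable.

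Gm11127, an MHC class I relative on chromosome 17, was at 1.22 FPKM in Tet2 KO and 1.94 in WT (log2 ratio -0.40). Its best match among named coding transcripts was H2-T9, another class I gene, over 67.9% of its length at 97.9% identity. H2-T9 was listed at 30.2 FPKM in Tet2 KO and 2.82 in WT, a log2 ratio of 3.03. Among the 32 Gm genes with a matching named gene, this was the 1 whose best match was past 2-fold, and the Gm gene had the opposite sign. H2-D1, H2-K1 and H2-Q10 each matched more of Gm11127, 74.1%, at lower identities of 79.9%, 79.4% and 78.3%. Their log2 ratios were -0.48, 0.25 and 0.15. H2-D1 had the same sign as Gm11127, and H2-K1 and H2-T9 did not. H2-Q10, at 0.113 FPKM in Tet2 KO and 0 in WT, was too weak for its sign to be read.

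The 7 zinc finger relatives, from a family of mostly DNA-binding repressors, ran from -0.23 (Gm6712) to 0.32 (Gm14295), with a median of -0.12 and 6 of 7 below 0. Gm10509 was at 1.29 FPKM in Tet2 KO and 1.66 in WT (-0.22). The strongest was Gm14434, at 15.3 FPKM in Tet2 KO and 16.7 in WT. Gm14434 and Gm14295 (5.49 and 4.21) are given the same interval on chromosome 2 and have ratios of opposite sign. Other protein-coding rows at the ends of the range were Gm3636, at 1.19 and 2.13 FPKM (-0.51), Gm2115, at 3.22 and 2.48 (0.28), and Gm8773, at 2.26 and 1.90 (0.17). Gm3636 had a copy covering 100% of its transcript.

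The strongest Gm rows were pseudogenes. There were 8 above 50 FPKM, all 8 of them pseudogenes, and 7 of the 8 were listed at a position other than their own. The remaining one, Gm5643 on chromosome X, resembles Hnrnpa1 at 98.7% identity and was at 186 FPKM in Tet2 KO and 178 in WT, beside 179 and 174 for Hnrnpa1, an RNA-binding protein gene. In total 12 of the 76 annotated Gm genes (15.8%) were listed away from their annotated position, against 13 of 10108 named genes (0.129%). Of these 12, 11 were pseudogenes and 10 lay on another chromosome. Their median level was 65.0 FPKM, against 2.22 for the 64 listed where they are annotated and 2.75 for the 24 that GENCODE lacks.

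For 10 of the 12, the listed position was that of the named gene they copy, with an identity of at least 98.3%. The table gives 1 interval per row and does not say which fragments or positions were counted under it. The Gm row was above the named row in both genotypes for 8 of the 10 and below it in both for Gm10052 and Gm5801. Gm15772, a copy of the ribosomal protein gene Rpl26, had the highest level of the Gm genes, at 1430 FPKM in Tet2 KO and 1403 in WT, beside 413 and 409 for Rpl26.

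Most of the other same-locus pairs were less than 0.25 apart in log2 ratio, as were 24 of all 32 Gm genes with a matching named gene. The signs of Gm gene and named gene were opposite in 17 of those 32. Whether unrelated genes lie as close was not tested. Gm12191, annotated on chromosome 11 but listed at Rpl30 on chromosome 15, was at 924 FPKM in Tet2 KO and 708 in WT (0.38), beside 148 and 133 for Rpl30 (0.16). Gm12669 was at 163 and 164, beside 33.8 and 36.6 for Glrx3, a glutaredoxin gene. Gm6793 was at 69.7 and 68.7 (0.02), beside 24.8 and 26.9 for the RNA-binding protein gene Hnrnpa3 (-0.11), which had the opposite sign. The Rpl30 copy had the third highest log2 ratio of all 100 Gm genes, counted with its sign, and was also the second strongest. Several negative ratios, such as that of Gm1943 (-0.53), were larger in size. Gm13363 was at 67.2 and 60.02, beside 12.8 and 12.2 for the phosphatase gene Ptp4a1. Gm10052 was at 68.2 and 64.5, under Hnrnpa1. Gm9855, the Tdg copy, was at 12.5 and 11.2, beside 10.6 and 10.3 for Tdg, whose product is the glycosylase that removes the bases TET enzymes oxidise furthest.

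The 2 pairs whose log2 ratios differed by 0.25 or more were of opposite sign. Gm6644 was at 262 FPKM in Tet2 KO and 313 in WT (-0.25), while Akr1b3, the aldose reductase gene it copies, was at 37.1 and 29.4 (0.33). Gm5801 was at 3.86 and 3.07 (0.26), while Ube2j2, a ubiquitin-conjugating enzyme gene, was at 9.76 and 10.2 (-0.06). In the other 8 pairs the ratios of copy and named gene were less than 0.25 apart.

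The sequences show how close the rows at 1 locus are. Gm12191 differed from Rpl30 at 1 of 348 coding bases, and Gm6644 from Akr1b3 at 0 of the 493 bases that aligned, out of 951 coding bases. The stretch with the single Rpl30 difference, in capitals at the last base, and the first 60 coding bases of the Akr1b3 pair are given from mm9. They lie at chr11:49492464-49492523, chr15:34372461-34372520, chr1:55501809-55501868 and chr6:34267346-34267405, all on the minus strand.
Gm12191: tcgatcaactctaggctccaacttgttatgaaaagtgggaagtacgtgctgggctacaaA
Rpl30: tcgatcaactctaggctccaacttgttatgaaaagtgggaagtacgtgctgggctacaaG
Gm6644: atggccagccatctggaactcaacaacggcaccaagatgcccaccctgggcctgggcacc
Akr1b3: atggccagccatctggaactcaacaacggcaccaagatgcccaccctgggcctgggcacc
The members of a pair were counted as separate rows, and a fragment from a stretch without a difference carries no base that tells them apart.

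Of the other 2 displaced rows, Gm7367 was listed at Ubald2 and was at 21.7 FPKM in Tet2 KO and 24.6 in WT (-0.17), beside 36.1 and 24.1 for Ubald2 (0.56). Gm7334, a copy of the antiproliferative gene Btg3 at 99.9% identity, was at 13.2 and 13.8, beside 4.77 and 4.69 for Btg3. Their positions were exchanged. The Gm7334 row overlaps the annotated Btg3 gene on chromosome 16, and the Btg3 row overlaps the annotated Gm7334 gene on chromosome 17.

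**Figure D5:**
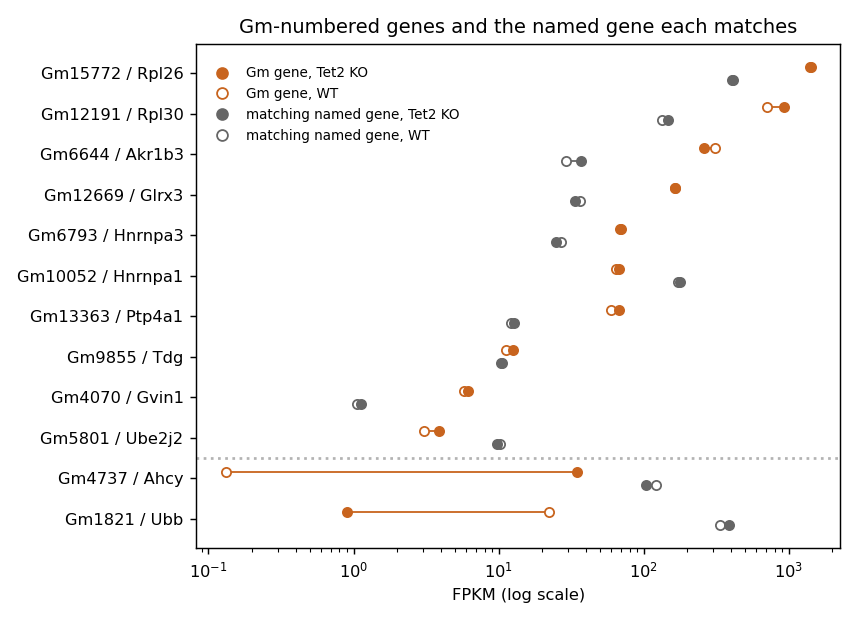
Levels in FPKM (log axis) of 12 Gm genes and of the named genes they match, in Tet2 KO (filled) and WT (open), with the 10 same-locus pairs above the dotted line. The same-locus pairs mostly have the Gm row above the named row, and Gm4737 and Gm1821 are the copies whose genotypes lie far apart while Ahcy and Ubb stay close.

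Pseudogenes matched to a named gene at another locus were mostly far below it. There were 11 of them, Gm1821 and Gm5643 included, and their named genes had log2 ratios from -0.02 to 0.20. Gm6548, a copy of the elongation factor gene Eef1a1, was at 14.998 FPKM in Tet2 KO and 15.7 in WT, beside 3769 and 3642. Gm6654 was at 1.11 and 1.42, beside 1516 and 1487 for the ribosomal protein gene Rps26. Both parents were far stronger than their copies, and neither copy was past 1.5-fold. Gm15421 was at 1.54 and 1.20 (0.21), with Rpl22l1 at 415 and 420, and Gm5124 was at 0.937 and 1.39 (-0.30), with the nucleolar protein gene Nolc1 at 74.5 and 68.6.

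Sharing a locus was more common for Gm genes than for others. Another row had the same interval for 55 of the 100, and a named gene was among the rows for 51, while 22.1% of all expressed rows and 21.4% of named ones shared theirs. The 51 Gm genes and the strongest named row at the locus were less than 0.25 apart in log2 ratio in 43 cases, and their signs were the same in 28. The Spearman rank correlation of their log2 ratios was only 0.09. Over all genes the interquartile range was 0.20, and whether pairs from separate loci lie as close was not tested. Of the named rows, 0 were past 2-fold. Gm genes were the stronger row in 15 of the 51.

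Readthrough transcripts, which join neighbouring genes, gave some of these cases. Gm20716, named Dpm1-adnp in RefSeq, was at 28.2 FPKM in Tet2 KO and 25.02 in WT (0.17), beside 1.77 and 3.32 for Dpm1 (-0.64). Gm20498, which joins Synj2bp and Cox16, was at 13.5 and 16.03 (-0.23), beside 34.7 and 35.1 for Cox16. Gm16907 was at 8.97 and 11.6 (-0.34), and Fancc, a Fanconi anaemia gene in the same interval, had a similar ratio at 5.73 and 7.16 (-0.28). Gm16617 (0.20) and its locus mate Arhgef40 (18.8 and 24.4, -0.36) differed in sign.

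The Gm genes lay on 20 chromosomes. On chromosome 3, which carries Tet2, there were 5 (Gm15417, Gm16740, Gm4349, Gm45927 and Gm6634), with log2 ratios from -0.07 to 0.19, and 0 lay within 1000000 bases of Tet2. Gm4349, a transcribed pseudogene next to Arnt, was at 1.43 FPKM in Tet2 KO and 1.13 in WT. Gm1943, a pseudogene on chromosome 8 (111863700 to 111864808, mm9), had the lowest ratio after Gm1821, at 11.1 and 16.5 FPKM, and its nearest expressed named gene, Dhx38, had a log2 ratio of 0.01.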

How the data were processed

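The deposited table holds FPKM values per gene, 1 per genotype. Per the study's methods and processing notes, the authors trimmed reads, aligned pairs to mm9 with TopHat2 2.0.13 and estimated levels with Cuffdiff 2.2.1. The gene annotation and the handling of fragments with several alignments are not given in the sources used here. The table also holds the authors' fold changes, test statistics and p-values, which were not used. Library depth is unknown from these values, so no interval or floor was computed, and the 2 libraries per genotype cannot be separated.

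The log2 ratio of Tet2 KO to WT was computed with a pseudocount of 1 FPKM, which understates differences of weak genes, over all genes with a mean of at least 1 FPKM. Named genes were weighted over 10 bins. Genes were looked up in GENCODE vM1 (mm9) and, for name and class only, in RefSeq (GRCm38.p6). Copies were searched with BLAST+ 2.17.0 in the genome and in coding transcripts (at least 75% identity over 50% of the transcript), with every 20th named gene for comparison. Named in the text are the 15 highest and 15 lowest log2 ratios, the 10 strongest genes, the 2 genes on each side of the minimum, newer names and matching named genes. Further copies, family members and locus mates were named after their values were seen. The genes and lists were chosen with earlier results of these data known.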

Additional observations from a re-analysis of the deposited data

How the results depend on the processing

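Gm4737 and Gm1821 stayed past 2-fold, in the same direction, under each pseudocount, minimum and scaling that kept them. Leaving out genes with a near-identical copy removed both, giving 0 higher and 0 lower (0%) among 73 genes and an SD of 0.19 in place of 0.65. Those 73 include the 24 genes that GENCODE lacks, for which no copy was searched. Without a filter on low values there were 3 higher and 2 lower of 1177, with an SD of 0.22, an interquartile range of 0.026 and a weighted named share of 0.337% in place of 4.76%. Keeping Gm7325 and Gm5483 gave 2 higher. With a minimum of 5 FPKM, 34 Gm genes had an SD of 1.09 and 5.88% past 2-fold, and the named share was 2.62%, which turns the order of the shares. The named share was 9.61% with a pseudocount of 0.1 FPKM, 10.1% with none (SD 0.97), 7.21% in TPM, 11.2% at 1.5-fold and 0.163% at 4-fold. TPM shifted the median of all genes by 0.0031. Among 45 genes with a locus of their own, and among 64 annotated where they are listed, both added after seeing the data, 4.44% and 3.13% passed 2-fold. The 1.5-fold count on the FPKM ratio with nothing added (7% in place of 2%) was also added after seeing the data. No transcript was under 200 bases, so that filter changed nothing. No paired analysis was possible because the table holds 1 pooled value per genotype, and for the same reason no library could be left out. An FPKM value carries no depth, and a difference between 2 pooled values cannot be set against the spread between mice.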
